A study of Drosophila melanogaster with 2 samples.

Results

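Cyclins, cyclin-dependent kinases (Cdks), the anaphase-promoting complex (APC/C) and the regulators that act on them in meiosis were examined as a set of 40 genes among the 16863 genes measured. The set was chosen by name, with earlier results of these data known. It holds 12 cyclins, 8 Cdks, 7 regulators of Cdk1 and of meiotic progression, and 9 APC/C subunits. The other 4 genes encode APC/C activators and an E2 enzyme that serves the complex. RNA was measured in stage 14 oocytes of *Drosophila melanogaster* from a w1118;eGFP-Me31B culture, as 1 library from a ME31B immunoprecipitate and 1 library from the input lysate. Both libraries therefore share the strain, the stage and the tagged protein, and both come from a large-scale culture, with no individual animals distinguished. ME31B is a DEAD-box RNA helicase that binds maternal mRNAs and represses their translation. The titles set the immunoprecipitate apart from the input, but no label names its antibody. The protocol offers anti-GFP or IgG and the methods give anti-GFP for RNA immunoprecipitation, so the anti-GFP reading is an assumption under every ratio below. For the oocyte culture itself the methods name w1118 flies with no mention of the tag, unlike the labels. RNA recovered on control IgG was not analysed here.

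Cyclins bind and switch on Cdks, and CycA, CycB and CycB3 drive Cdk1 in mitosis and in meiosis. The APC/C is a ubiquitin ligase that marks these cyclins for destruction at anaphase, and it is active only with an activator of the Cdc20 and Cdh1 family. Stage 14 oocytes are arrested in metaphase of meiosis I, with high Cdk1 activity, and complete meiosis after egg activation, when no transcription supplies new mRNA. The cyclins and regulators needed for the rest of meiosis and for the rapid cleavage divisions are therefore made from stored maternal mRNA. Which of these stored mRNAs were recovered with ME31B, and how far beyond or short of their abundance, is the comparison made here.

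The values are FPKM, the fragments of a gene per kilobase of transcript, scaled to the mapped fragments of its library, as deposited by the authors. FPKM is scaled for length, so levels can be compared between genes within a library. Occupancy is the ratio of immunoprecipitate FPKM to input FPKM. It was taken as log2 and set relative to the median of the 6886 genes above 0.5 FPKM in both libraries, where the median gene had a plain ratio of 1.26 (log2 of 0.33). All 40 members passed that minimum. With 1 library of each kind no difference had a replicate check, no p-value was computed, and members are described by a fixed size of 2-fold from the median gene. Sequencing depth is not stated in the labels or methods used here. Among 1054 genes above 0 but under 0.5 FPKM in both libraries, 283 had a ratio between 0.9 and 1.1 and 152 between 0.4 and 0.6, against 87 between 0.6 and 0.8, a pattern that libraries of about equal depth would give where such genes have 1 or 2 reads. All 7 germline markers passed the minimum, with summed levels of 7940 FPKM in the immunoprecipitate and 3089 FPKM in the input. Much of that sum was *pgc*, at 4674 FPKM in the immunoprecipitate and 921 FPKM in the input. The markers were split, with 4 above the median gene and *osk*, *vas* and *bcd* below it, at −0.998, −0.96 and −0.45. Eggshell and yolk genes of the surrounding follicle cells were also present, at 493 FPKM summed over 10 genes in the immunoprecipitate and 861 FPKM in the input, and 6 of the 8 that passed lay at least 2-fold below the median gene. Midgut enzymes summed to 21.6 FPKM in the immunoprecipitate and 31.7 FPKM in the input. Testis genes other than *bam*, a gene of early germline differentiation in both sexes, did not exceed 1.21 FPKM in either library. How far follicle cell RNA contributes to the members' values was not tested.

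As a whole the set was spread like other mRNAs. Of the 40 members, 2 (5%) were 2-fold or more above the median gene, where 9.48% of all genes did, and 5 (12.5%) were 2-fold or more below it, where 15.2% did. The shares are near or under the background. On the scale without centring, 4 members were at or above 2-fold, where 20.3% of all genes were, and 2 at or below it, where 9.15% were. The members above were *APC10* and *CycJ*, and those below were *shtd*, *fzy*, *cort*, *Cdc27* and *Cdc16*, which all encode APC/C subunits or activators. The median occupancy of the 40 members was −0.12, with values from −2.66 to 1.11. The members were somewhat more abundant than other genes kept, with a median of 64.3 FPKM in the immunoprecipitate and 55.6 FPKM in the input, against 42.7 and 34.4 FPKM for all genes kept. Together they held 0.593% of the summed FPKM in the immunoprecipitate and 0.4996% in the input.

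**Figure D1:**
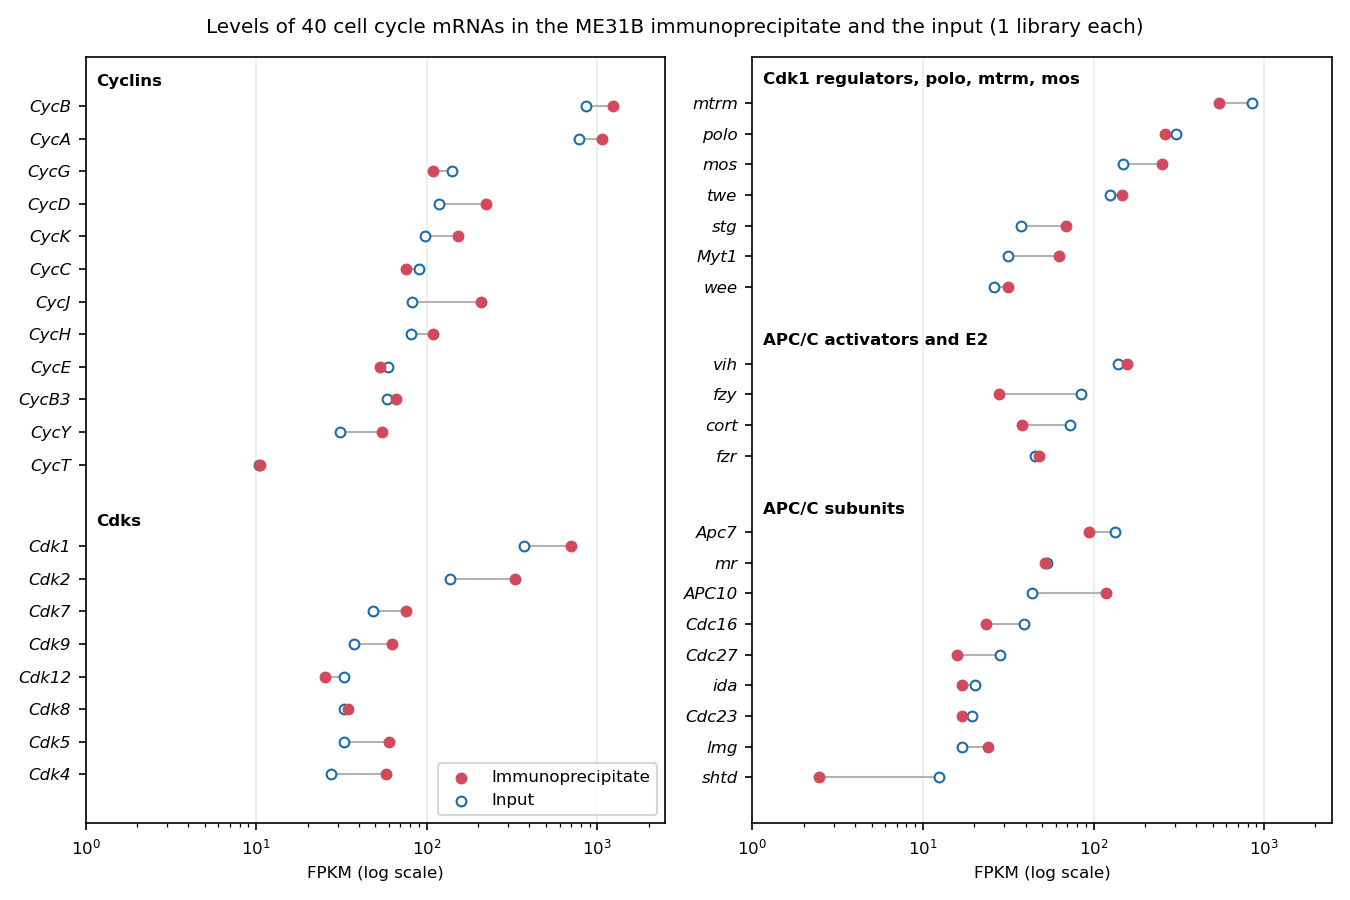
FPKM of the 40 members in the ME31B immunoprecipitate (filled points) and in the input (open points), on a log axis, grouped by role and ordered by input level, with 1 library each. *CycB*, *CycA*, *mtrm* and *Cdk1* were the most abundant members in both libraries, and *shtd* had the longest line, at 2.47 FPKM in the immunoprecipitate and 12.4 FPKM in the input.

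The 3 mitotic cyclins were recovered close to the median gene, and *CycA* and *CycB* were the most abundant cyclin mRNAs. *CycB*, whose product is the main partner of Cdk1 at entry into mitosis and meiosis, had 1239 FPKM in the immunoprecipitate and 861 FPKM in the input, the highest level of any member in both libraries. Its occupancy was 0.19. *CycA*, which acts ahead of *CycB* and is destroyed earlier, had 1060.2 FPKM in the immunoprecipitate and 781 FPKM in the input, an occupancy of 0.11. *CycB3*, which acts at anaphase and is needed for female meiosis, was far less abundant, at 66.1 FPKM in the immunoprecipitate and 58.1 FPKM in the input, with an occupancy of −0.15. The *CycB* level was 18.7 times that of *CycB3* in the immunoprecipitate and 14.8 times in the input. *CycA* and *CycB* together made up 68.4% of the summed FPKM of the 12 cyclins in the immunoprecipitate and 68.2% in the input.

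The cyclins of G1 and S phase differed from each other. *CycD*, the partner of Cdk4 in growth control, had 222 FPKM in the immunoprecipitate and 118 FPKM in the input, an occupancy of 0.58. *CycE*, which drives S phase with Cdk2, had 53.1 FPKM in the immunoprecipitate and 59.0 FPKM in the input, an occupancy of −0.48. The 2 genes also differ in span, the distance from start to end with introns, at 2855 bp for *CycD* and 20570 bp for *CycE*, and protein-coding genes in the same deciles of span had medians of −0.14 and −0.61. Taken against those medians, *CycD* was at 0.72 and *CycE* at 0.12. Set against genes of their own deciles of span, *CycA*, *CycB* and *CycB3* were at 0.57, 0.33 and −0.005.

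*CycJ*, a cyclin expressed mainly in the female germline, had the highest occupancy of the cyclins, except when set against genes of similar span. It had 209 FPKM in the immunoprecipitate and 82.0 FPKM in the input, an occupancy of 1.01, which is just past 2-fold and above 90.8% of all genes kept. The gene lies on chromosome 3L, from 3466428 to 3468098 in Release 6 (dm6), and 76 bp of its span are shared with *CG14971*, which stood at 26.4 FPKM in the immunoprecipitate and 29.7 FPKM in the input. *CycJ* dropped under 2-fold when only genes above 5 FPKM were used, at 0.96, and when set against protein-coding genes of similar span, at 0.70, where *CycK*, *CycY* and *CycD* were higher. *CycG*, linked to growth control and to repair of meiotic breaks, was the lowest cyclin, at 108 FPKM in the immunoprecipitate and 140 FPKM in the input, an occupancy of −0.70. *CycY*, the partner of the kinase Eip63E, had 54.6 FPKM in the immunoprecipitate and 30.8 FPKM in the input, an occupancy of 0.49.

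Cyclins of transcription complexes lay on both sides of the median gene. *CycK*, which serves Cdk12 on elongating RNA polymerase II, had 153 FPKM in the immunoprecipitate and 97.8 FPKM in the input, an occupancy of 0.31. It shares 39.8% of its span with *CG3651*, at 30.7 FPKM in the immunoprecipitate and 50.4 FPKM in the input, an occupancy of −1.05. *CycH*, the cyclin of the Cdk-activating kinase and of TFIIH, was at 109 FPKM in the immunoprecipitate and 80.5 FPKM in the input, an occupancy of 0.10. *CycT*, of the elongation factor P-TEFb, was the least abundant member in the input, at 10.5 FPKM in the immunoprecipitate and 10.4 FPKM in the input, an occupancy of −0.31. *CycC*, of the Mediator kinase module, had 75.4 FPKM in the immunoprecipitate and 89.9 FPKM in the input, an occupancy of −0.59. Its span of 1202 bp is short, and protein-coding genes of similar span had a median of 0.58. Against them *CycC* stood at −1.16, past 2-fold on the low side and lower than *CycG*. Over all 12 cyclins the median was 0.10. Of them 1 (8.33%) was past 2-fold on the high side, where 9.48% of all genes were. None was past it on the low side, where 15.2% were.

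The Cdk mRNAs had the highest median of the 5 roles, at 0.47, with 6 of 8 above the median gene. Of the 8, 7 were higher in the immunoprecipitate than in the input, as were 4420 of the 6886 genes kept. The Cdk median was not the highest against genes of similar span. Over members without overlap it was 0.31, against 0.53 for the Cdk1 regulators, which then were *polo*, *stg* and *Myt1* alone. None of the 8 Cdks reached 2-fold in either direction, where 9.48% of all genes did above and 15.2% below. *Cdk2*, the S phase kinase, had 328 FPKM in the immunoprecipitate and 138 FPKM in the input, an occupancy of 0.92, the third highest of the members. *Cdk4* had 57.4 FPKM in the immunoprecipitate and 27.4 FPKM in the input, an occupancy of 0.73. *Cdk1*, the kinase of mitosis and meiosis, had 704 FPKM in the immunoprecipitate and 373 FPKM in the input, an occupancy of 0.58. The 3 Cdks that run the cell cycle were thus each recovered above the median gene. Both *Cdk2* and *Cdk4* lay past 2-fold without centring, at 1.25 and 1.065, and against protein-coding genes of similar span, at 1.06 and 1.1996. *Cdk2* shares 39.0% of its span with *CG17267*, which was listed at 0 FPKM in both libraries.

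The Cdks with roles outside the cycle were more spread. *Cdk5*, known for its work in neurons, had 60.4 FPKM in the immunoprecipitate and 32.7 FPKM in the input, an occupancy of 0.55, and its span lies wholly inside that of *CG30466*, which was at 6.38 FPKM in the immunoprecipitate and 2.87 FPKM in the input. *Cdk9* of P-TEFb and *Cdk7* of TFIIH were at 0.39 and 0.31, from 62.2 and 75.8 FPKM in the immunoprecipitate and 37.6 and 48.6 FPKM in the input. *Cdk8* of the Mediator kinase module was at −0.27, with 34.4 FPKM in the immunoprecipitate and 32.8 FPKM in the input. *Cdk12* was the only Cdk with less in the immunoprecipitate, at 25.1 FPKM, than in the input, at 32.9 FPKM, an occupancy of −0.72.

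Known partnerships within the 40 members gave 9 pairs of a Cdk and its cyclin, which involve 7 different Cdks. Set beside its cyclin, the Cdk mRNA had the higher occupancy in 8 of 9 pairs, and the median difference was 0.39. Against protein-coding genes of similar span it was higher in 5 of 9 pairs, with *CycA* and *CycB* above *Cdk1* and *CycT* above *Cdk9* as well. The widest gap was between *Cdk2* and *CycE*, at 0.92 and −0.48, a difference of 1.40. *Cdk4* and *CycD* lay closest, with a difference of 0.15. *Cdk12* and *CycK* ran the other way on both scales, at −0.72 and 0.31 relative to the median gene. *Eip63E*, which is not one of the 40, and *CycY* also ran the other way relative to the median gene, at −0.24 and 0.49. That pair was not counted. The 3 pairs of *Cdk1* share the one *Cdk1* value, and pairs were set by known partnership, not by values. With 1 library of each kind there is no replicate spread against which a difference could be judged.

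**Figure D2:**
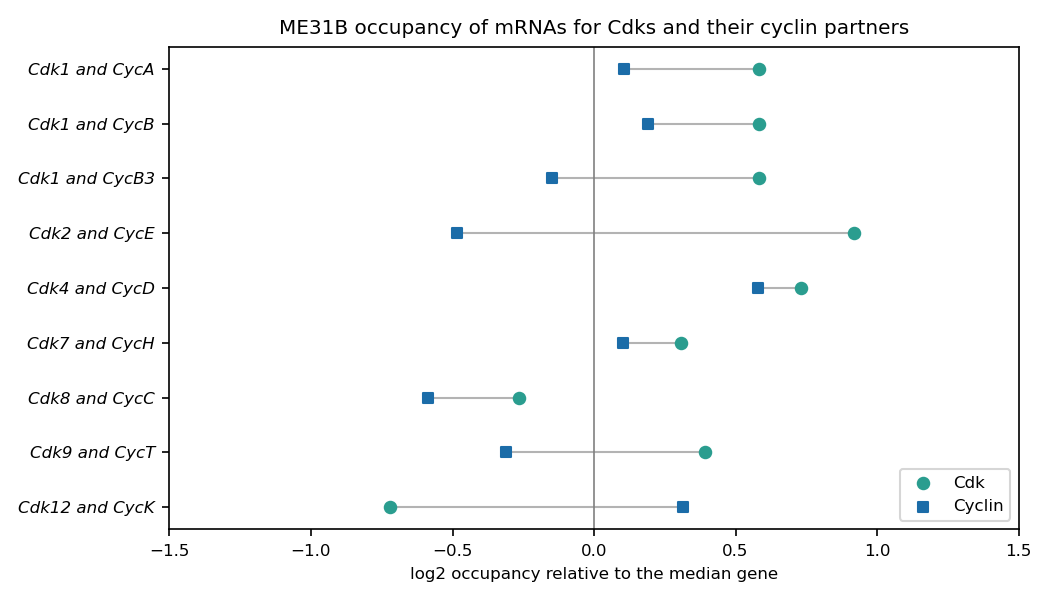
Log2 occupancy relative to the median gene (horizontal axis) for the mRNAs of 9 pairs of a Cdk (circles) and its cyclin partner (squares), joined by lines, from 1 immunoprecipitate and 1 input library. The Cdk lies to the right in 8 of 9 pairs on this scale, and in 5 of 9 when each is set against genes of similar span. *Eip63E* and *CycY*, with *CycY* the higher, are not shown.

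Among the enzymes that set Cdk1 activity, the meiotic phosphatase and the nuclear kinase lay near the median gene, and the mitotic phosphatase and the membrane kinase lay above it. *twe*, the Cdc25 phosphatase needed in meiosis, had 147 FPKM in the immunoprecipitate and 124 FPKM in the input, an occupancy of −0.09. *stg*, the Cdc25 phosphatase of later mitoses, was less abundant, at 68.7 FPKM in the immunoprecipitate and 37.8 FPKM in the input, with an occupancy of 0.53. The *twe* level was 2.14 times that of *stg* in the immunoprecipitate and 3.29 times in the input. Of the kinases that inhibit Cdk1, *Myt1*, which is bound to membranes, had 62.4 FPKM in the immunoprecipitate and 31.6 FPKM in the input, an occupancy of 0.65. *wee*, the nuclear kinase listed as *Wee1*, had 31.4 FPKM in the immunoprecipitate and 26.03 FPKM in the input, an occupancy of −0.07. On the plain scale without centring *twe* and *wee* were both above 0, since their FPKM was higher in the immunoprecipitate.

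Polo kinase and its oocyte inhibitor were both abundant and both recovered below the median gene. *polo*, which promotes Cdk1 activation and spindle function, had 261 FPKM in the immunoprecipitate and 303 FPKM in the input, an occupancy of −0.55. *mtrm* (Matrimony), which holds Polo in check before nuclear envelope breakdown in oocytes, had 547 FPKM in the immunoprecipitate and 848 FPKM in the input, the second most abundant member in the lysate. Its occupancy was −0.97, just short of 2-fold below the median gene. Its span of 1092 bp is among the shortest of the set, and against protein-coding genes of similar span it stood at −1.54; with only genes above 5 FPKM it was at −1.02. The span of *mtrm* lies wholly inside that of *Exo70*, which was at 37.7 FPKM in the immunoprecipitate and 24.3 FPKM in the input, an occupancy of 0.30. *mos*, the germline kinase that acts on the MAP kinase pathway, lay on the other side, at 253 FPKM in the immunoprecipitate and 149 FPKM in the input, an occupancy of 0.43. The median of these 7 genes was −0.07. None of them reached 2-fold, where 9.48% of all genes did above and 15.2% below.

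**Figure D3:**
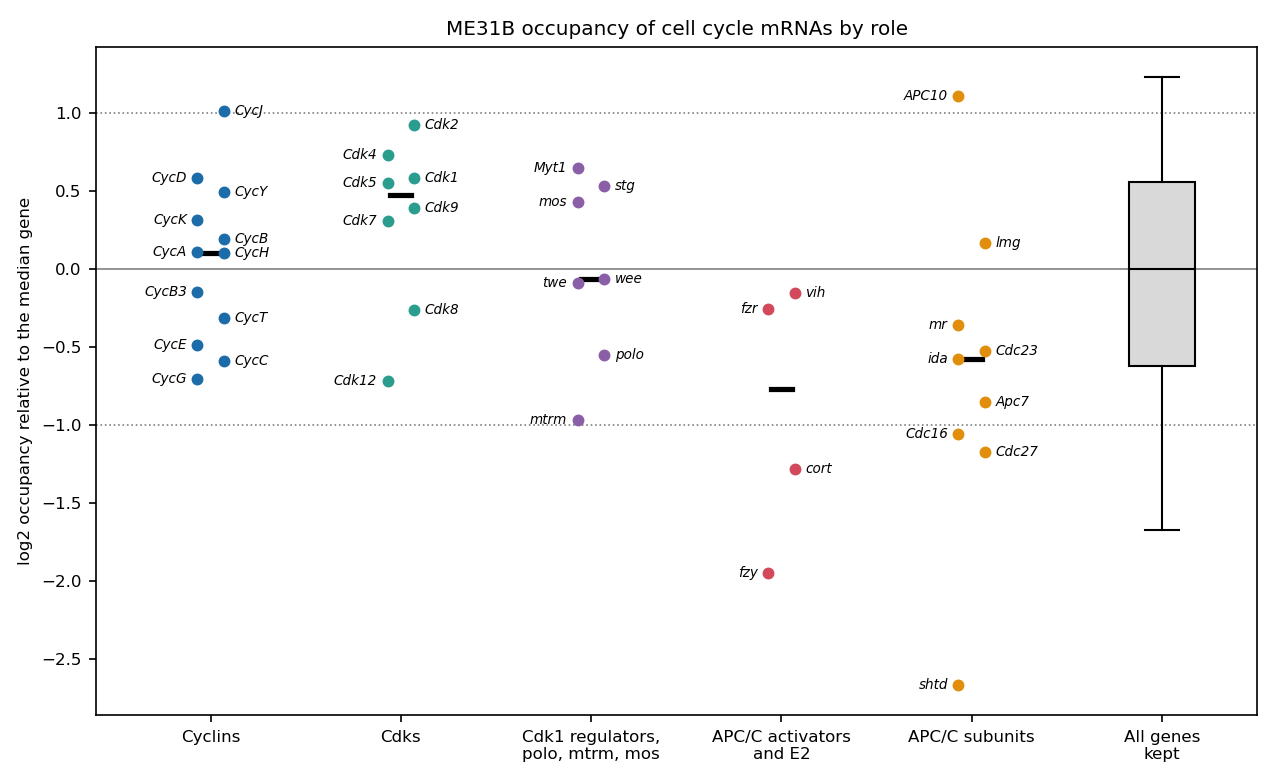
Log2 occupancy relative to the median gene for each member, by role, with black bars at the role medians, and for all 6886 genes kept as a box from the lower to the upper quartile with whiskers at the 5th and 95th percentiles. Dotted lines mark 2-fold. On this scale the role medians run from 0.47 for the Cdks to −0.77 for the APC/C activators and E2. Both ends of that order change when members that overlap another gene are left out. That step leaves *polo*, *stg* and *Myt1* of the Cdk1 regulators, and *fzr* alone of the activators and E2.

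The 3 APC/C activators and the E2 lay below the median gene, although *fzr* and *vih* were above 0 without centring. *fzy*, the Cdc20 activator used in mitosis and meiosis, had 27.7 FPKM in the immunoprecipitate and 84.9 FPKM in the input. Its occupancy was −1.95, lower than that of all but 3.05% of the genes kept, and it stayed more than 2-fold low under every alternative that gave it a value, from −1.996 to −1.596. *cort*, a Cdc20 relative made for female meiosis, had 37.9 FPKM in the immunoprecipitate and 73.0 FPKM in the input, an occupancy of −1.28. Without centring *cort* was at −0.94, and with no filter and a pseudocount of 0.5 also at −0.94, short of 2-fold. These are not separate checks, since the median with no filter was 0 and nothing was subtracted there either. *fzr*, the Cdh1 activator that acts on leaving mitosis and is listed as *rap*, had 48.0 FPKM in the immunoprecipitate and 45.4 FPKM in the input, an occupancy of −0.25. The *fzy* level was 0.578 times that of *fzr* in the immunoprecipitate and 1.87 times in the input. *vih*, an E2 that hands ubiquitin to the APC/C, was more abundant. It had 157 FPKM in the immunoprecipitate and 139 FPKM in the input, with an occupancy of −0.16.

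Both low activators sit on chromosome 2L and overlap other genes. *fzy* runs from 16310956 to 16313097 and shares 62 bp, 2.89% of its span, with *cact*, the inhibitor of Dorsal, which had 624 FPKM in the immunoprecipitate and 259 FPKM in the input, an occupancy of 0.94. *cort* runs from 6674682 to 6676635 and shares 99 bp with *cup*, which encodes a partner of ME31B and had 33.8 FPKM in the immunoprecipitate and 72.6 FPKM in the input, an occupancy of −1.44. The same 99 bp are shared with *CG34310*, at an occupancy of 0.96. How reads in shared bases were assigned is not known, and their part in these values was not tested.

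Most APC/C subunits also lay below the median gene. Of 9 subunits, 7 were below it, with a median occupancy of −0.58. The same number had less FPKM in the immunoprecipitate than in the input, as did 2466 of the 6886 genes kept. Of the 9 subunits, 3 (33.3%) were at least 2-fold low, against the background of 15.2%. Of the 12 subunits and activators together 5 (41.7%) were low, and *Cdc27* alone of these overlaps no other gene. At least 2-fold high was 1 (8.33%), where 9.48% of all genes were. With the E2 *vih* included, 5 of 13 (38.5%) were low. Without centring 2 of the 12 were low, against 9.15% of all genes. With genes of similar span as the reference 3 of the 12 were low, against 12.2% of all genes. Centred on the ratio of summed FPKM 3 of the 12 were low, against 10.4%. With no filter and a pseudocount of 0.5, low genes numbered 2 of the 12, against 3.93%. Of the 5 that overlap no other gene, 1 was low. Among the 20 cyclins and Cdks none was at least 2-fold low, except *CycC* when set against genes of similar span. Relative to the median gene 1 (5%) was at least 2-fold high, where 9.48% of all genes were, and the median was 0.25. These counts come from 1 library of each kind and describe them.

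*shtd*, the Apc1 scaffold on which the complex is built, was the lowest member. It had 2.47 FPKM in the immunoprecipitate and 12.4 FPKM in the input, an occupancy of −2.66, so that 0.842% of genes kept were at or below it. The gene lies on chromosome X from 15455544 to 15462441, spans 6898 bp, and stood at −2.19 against protein-coding genes of similar span. It also had the lowest immunoprecipitate level of the members, and how many reads lie behind that value is not known. It shares 8 bp with *CG11655*. *ida* (Apc5), which joins *shtd* in the platform of the complex, had 16.9 FPKM in the immunoprecipitate and 20.1 FPKM in the input, an occupancy of −0.58. *APC4*, the other platform subunit, is not one of the 40 and had 21.5 FPKM in the immunoprecipitate and 28.3 FPKM in the input, an occupancy of −0.73.

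The subunits with tetratricopeptide repeats, which form the arm that holds the activator, were all 4 below the median gene. All 4 had less FPKM in the immunoprecipitate than in the input, as did 2466 of the 6886 genes kept. *Cdc27* had 15.7 FPKM in the immunoprecipitate and 28.1 FPKM in the input, an occupancy of −1.17. *Cdc16* had 23.5 FPKM in the immunoprecipitate and 38.9 FPKM in the input, an occupancy of −1.06. *Apc7*, the most abundant subunit in the input, had 94.0 FPKM in the immunoprecipitate and 134 FPKM in the input, an occupancy of −0.85, and *Cdc23* was at −0.52, with 17.0 FPKM in the immunoprecipitate and 19.4 FPKM in the input. *Cdc27* lies on chromosome 3L from 7245481 to 7249340 and overlaps no other annotated gene, while *Cdc16*, on chromosome 3R from 23281201 to 23284123, shares 122 bp with *CG6763*, which was below 0.5 FPKM in both libraries. *Cdc27* and *Cdc16* were short of 2-fold without centring, at −0.84 and −0.73, and against protein-coding genes of similar span, at −0.92 for both.

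The 3 subunits that carry out catalysis and substrate binding were higher than the other 6. *mr* (Apc2), the cullin of the complex, had 52.0 FPKM in the immunoprecipitate and 53.0 FPKM in the input, an occupancy of −0.36. *lmg* (Apc11), the RING subunit listed as *lmgA*, had 24.1 FPKM in the immunoprecipitate and 17.0 FPKM in the input, an occupancy of 0.17. It shares its whole span with *lmgB*, at 15.6 FPKM in the immunoprecipitate and 14.6 FPKM in the input, and reads could be split between both. *APC10*, which helps to hold substrates, had 118 FPKM in the immunoprecipitate and 43.3 FPKM in the input, an occupancy of 1.11, the highest of the set on this scale. It lies on chromosome 2R from 17517261 to 17518186, and at 926 bp it has the shortest span of the members. Genes of similar span had a median of 0.575, and against them *APC10* stood at 0.53, short of 2-fold. It shares 20.0% of its span with *CG4853*, at 17.8 FPKM in the immunoprecipitate and 15.4 FPKM in the input. This split of the subunits by position in the complex was made after their values were seen.

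**Figure D4:**
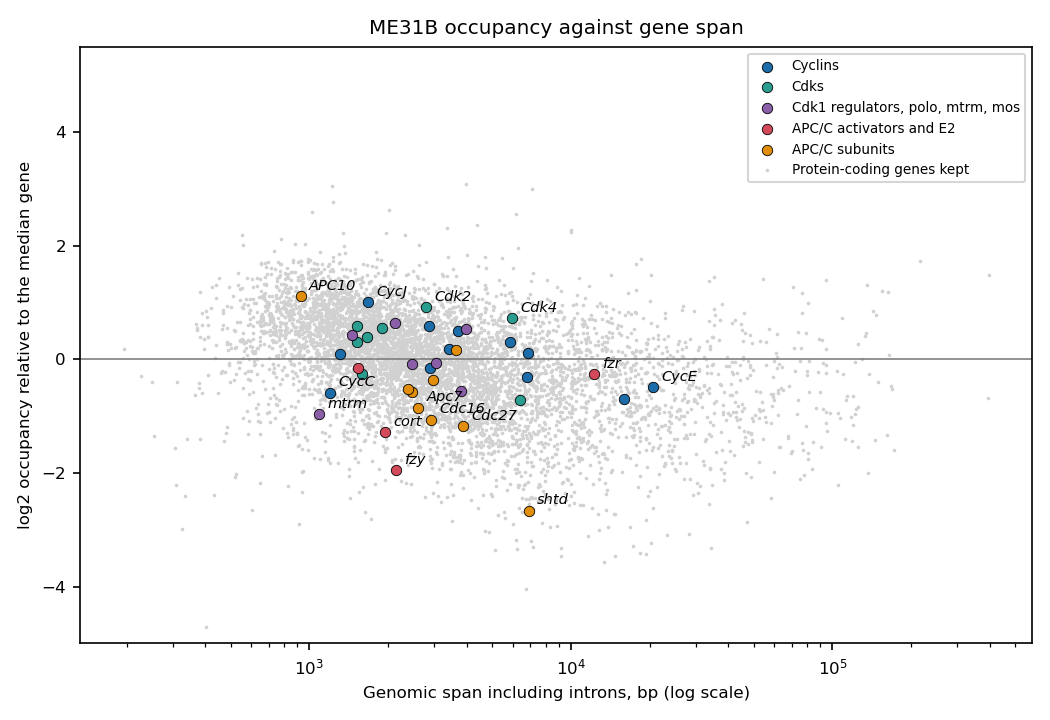
Log2 occupancy relative to the median gene (vertical axis) against genomic span including introns (horizontal log axis) for the 40 members, coloured by role, over all 6550 protein-coding genes kept (grey). *mtrm* and *cort* lie low for their spans, where the median gene was at 0.58 and 0.22, *fzy* lies low where it was at 0.03, *shtd* lies near the lower edge for its span, and *APC10* lies within the cloud of short genes.

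Across the 40 members, Spearman's rho was −0.21 between span and occupancy and 0.05 between input FPKM and occupancy. Within roles, rho between span and occupancy was −0.31 for the 12 cyclins, 0.12 for the 8 Cdks and −0.58 for the 9 APC/C subunits. These are descriptions across genes of the same 2 libraries, and span is not transcript length. Against protein-coding genes of the same decile of span, the role medians were 0.25 for cyclins, 0.18 for Cdks, 0.08 for Cdk1 regulators, −0.99 for APC/C activators and E2, and −0.61 for APC/C subunits, so that the Cdks no longer had the highest median and the APC/C genes remained lowest. The counts past 2-fold on that scale were again 2 on the high side, where 7.33% of all genes were, and 5 on the low side, where 12.2% were, with *Cdk2* and *Cdk4* high and *shtd*, *fzy*, *mtrm*, *cort* and *CycC* low. Levels kept much of their order between the libraries, with a rho of 0.86 between immunoprecipitate and input FPKM over the 40 members and 0.92 over all genes kept. *fzy* moved most, standing 32nd of the members in the immunoprecipitate and 15th in the input, and *cort* stood 29th in the immunoprecipitate and 18th in the input, while *APC10* was 13th in the immunoprecipitate and 24th in the input.

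The spans of 21 members overlap another annotated gene, and 6 of the 7 members past 2-fold are among them, *Cdc27* being the exception. The share of all genes with such an overlap was not computed, so these counts have no reference. Over the 19 members without overlap, occupancy ranged from −1.17 to 0.65 with a median of −0.15, beside −0.09 over the 21 with overlap. The overlaps of the members past 2-fold range from 8 bp in *shtd* to 185 bp in *APC10*.

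Of 21 other cell cycle genes, 19 passed the minimum, with a median of −0.16. Past 2-fold from the median gene were 2 on the high side, where 9.48% of all genes were, and 2 on the low side, where 15.2% were. Both genes above encode Cks proteins, small subunits that bind Cdks. *Cks85A* had 230 FPKM in the immunoprecipitate and 73.7 FPKM in the input, an occupancy of 1.31. *Cks30A*, which is needed in female meiosis, had 138 FPKM in the immunoprecipitate and 48.4 FPKM in the input, an occupancy of 1.17. The genes below were *CG8188*, at 27.2 FPKM in the immunoprecipitate and 48.7 FPKM in the input, an occupancy of −1.18, and *mei-41*, the ATR kinase of the DNA checkpoint, at 2.27 FPKM in the immunoprecipitate and 6.59 FPKM in the input, an occupancy of −1.87. *Rca1*, an inhibitor of the APC/C, was at 0.20, with 166 FPKM in the immunoprecipitate and 115 FPKM in the input. *Eip63E*, the kinase partner of CycY, was at −0.24, with 18.6 FPKM in the immunoprecipitate and 17.4 FPKM in the input.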

How the data were processed

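The labels and methods describe RNA from a ME31B immunoprecipitate and from its input lysate, depleted of rRNA and sequenced with single-end reads of 50 bases from stranded libraries. The submitters' processing notes name bcl2fastq 2.17, STAR 2.5.2a, Cufflinks 2.2.1 and R 3.1.2 with the dm6 build. By the methods, STAR mapped the trimmed reads and Cufflinks gave a value per gene. The authors deposited FPKM per gene, 1 column per library, which were used as given. Annotation release, multi-mapped reads, use of strand and depth are not stated there, so no counting interval could be attached.

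Occupancy was log2 of immunoprecipitate over input FPKM without a pseudocount for 6886 genes above 0.5 FPKM in both libraries, minus its median (Python 3.11.15, pandas 2.3.3, scipy 1.17.1). The code was tested on simulated data. Of the 40 members, 35 matched by symbol and 5 by a synonym of 1 RefSeq gene. Coordinates, spans and overlaps are from RefSeq Release 6, which matched 6839 of the genes kept. Every member is named, as are the other cell cycle genes past 2-fold and *Cks30A*, *Cks85A*, *APC4*, *Rca1* and *Eip63E*. The members and lists were chosen with earlier results of these data known. Sequences were not used here.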

Additional observations from a re-analysis of the deposited data

How the results depend on the processing

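No paired analysis was possible because there is a single library of each kind. The centring on genes of similar span and the removal of overlapping members were chosen after seeing the data. The share of all genes past the same limit is given in parentheses. Members at least 2-fold above the median gene numbered 2 (9.48%), but 4 with no filter and a pseudocount of 0.5 (8.66%), 4 without centring (20.3%), 1 above 5 FPKM (8.17%), 5 at 1.5-fold (23.8%), 0 at 3-fold (1.79%) and 0 among the 19 members that overlap no other gene. Members at least 2-fold below numbered 5 (15.2%), but 2 with no filter and a pseudocount of 0.5 (3.93%), 2 without centring (9.15%), 3 when centred on the ratio of summed FPKM (10.4%), 10 at 1.5-fold (26.3%), 2 at 3-fold (5.95%) and 1 among members without overlap. The other cell cycle genes past 2-fold in either direction numbered 4 (9.48% above and 15.2% below). They numbered 7 at 1.5-fold (23.8% and 26.3%), 1 at 3-fold (1.79% and 5.95%) and 2 when centred on genes of similar span (7.33% and 12.2%). Without overlapping members the median of the Cdk1 regulators, polo, mtrm and mos moved to 0.53, from *polo*, *stg* and *Myt1* alone. The Cdks were then at 0.31 and the APC/C subunits at −0.71. The value of −0.25 for activators and E2 was that of *fzr* alone, so these are not shifts of whole groups. Fewer members remain in the counts without overlap. With no filter the median log2 occupancy was 0, so member values there differ from those without centring only by the pseudocount. The cause of the other shifts was not tested beyond the change of scale or limit itself. Of 298 occupancies of single members under the alternatives, 275 stayed on the same side of 2-fold, 13 fell short of it, 10 came to pass it and 0 turned round. These include the 19 members without overlap, whose values that step could not change, and members never past 2-fold. Of the members past 2-fold, *Cdc16* stayed so in 3 of 7 alternatives and *Cdc27* in 4 of 8. *CycJ* and *cort* each stayed so in 5 of 7, and *APC10* in 6 of 7. *shtd* and *fzy* stayed at least 2-fold low under each alternative that gave them a value. Depth is unknown, so precision at the 2.47 FPKM of *shtd* cannot be stated.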
